A study of Mus musculus with 4 samples.

Results

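Cd44, Sprr1a, Clu, Sfn, Lgals3 and Ndrg1, 6 genes associated with injured or stressed epithelium, were read from a table of 23444 genes in EpCAM-positive cells of the fetal mouse lung with and without Emc3. The 6 genes were taken by symbol, and they were proposed with their RPKM in the knockout and wild-type libraries already known. The differences between the groups are therefore given for these genes as a description, without a test. All 6 were found, and all 6 were among the 10128 genes that reached 1 RPKM in at least 2 libraries. Sprr1a passed that limit only through the knockout libraries, since 1 of the 2 wild-type libraries was above it.

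RNA was sequenced from cells sorted from whole lung of embryos at E18.5 for EpCAM, late in gestation, EpCAM being a surface protein of epithelial cells. The first group holds 2 libraries labelled as knockout of Emc3 (KO), in a series whose title speaks of a conditional deletion in the developing lung epithelium, and the second holds 2 wild-type libraries (WT) of the same age. EMC3 belongs to the core of the complex that helps newly made membrane proteins into the endoplasmic reticulum membrane. The sources used here do not give the Cre driver, the strain, the litters or whether a library holds 1 embryo or several, so the spread between libraries may be partly technical. RPKM counts reads per kilobase of gene and corrects for how many reads a library had mapped. Each ± gives an SD over the 2 libraries of a group.

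The deposited labels conflict. Names such as KO 27 and WT 35 combine the mutant or control heading of a column with the first number in it, whose meaning is unknown. The sample titles with the same numbers give KO 35 and WT 27 the genotype of their headings and put KO 27 and WT 35 in the opposite group. Directions below follow the headings. Emc3 was at 2.28 RPKM in KO 27 and 2.33 RPKM in KO 35, against 14.2 RPKM in WT 27 and 17.99 RPKM in WT 35, which goes with the headings (log2 difference -2.36, limma adjusted p = 0.0242). By Xist, KO 35 and WT 27 were female and KO 27 and WT 35 male, so each group holds 1 library of each sex. The table gives no read counts, so the depth is unknown and only the spread between libraries is available as an error. RPKM summed to 141373 and 146918 in KO 27 and KO 35, and to 151616 and 169294 in WT 27 and WT 35. The epithelial markers Epcam, Cdh1, Nkx2-1, Krt8 and Krt18 summed to between 488 and 506 RPKM in KO and between 466 and 491 RPKM in WT. Of these 5, 3 (Epcam, Krt8 and Krt18) had both KO values above both WT values, as had 30% of the 10128 genes. Cdh1 and Nkx2-1 overlapped between the groups. Epcam was at 52.9 and 53.9 RPKM in KO (27 and 35), against 35.2 and 46.2 RPKM in WT (27 and 35).

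In the adult lung, alveolar type 2 cells that are injured, or that are on their way to becoming flat alveolar type 1 cells, can pass through a transitional state marked by keratin 8 and by genes of stress, adhesion and the cytoskeleton. CD44 is the main cell-surface receptor for hyaluronan, a large sugar polymer of the extracellular matrix, and is found on many epithelial cells and on leukocytes. SPRR1A is a small proline-rich protein that squamous cells crosslink into their cornified envelope, and its gene is also switched on in injured tissues outside the skin. Clusterin, 14-3-3 sigma (Sfn), galectin-3 (Lgals3) and NDRG1 are a secreted chaperone, an adaptor protein of epithelial cells, a sugar-binding lectin and a protein induced by hypoxia and other stresses.

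For 4 of the 6 genes, both KO values exceeded both WT values. These were Cd44, Sprr1a, Clu and Sfn, while Lgals3 and Ndrg1 overlapped between the groups. KO lay above WT without overlap for 30% of all tested genes. Since the genes were chosen on this contrast, nothing is read from that comparison. The median log2 difference of the 6 genes, KO minus WT in log2(RPKM + 1), was 0.96, and that of all tested genes was 0.056. In these mixed sorted cells, more cells with a transcript and more transcript per cell cannot be told apart.

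**Figure D1:**
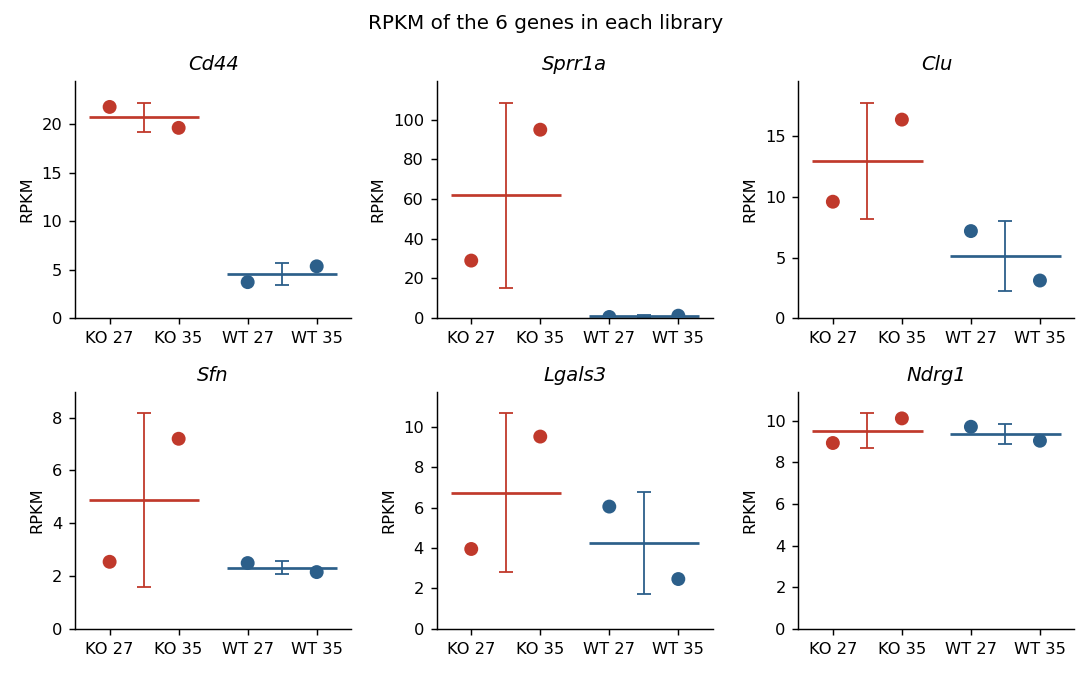
RPKM of each of the 6 genes (y axis, linear from 0) in the libraries KO 27, KO 35, WT 27 and WT 35 (x axis), with KO in red and WT in blue. Horizontal lines are group means and vertical bars SD (n = 2). Cd44 and Sprr1a are well apart between the groups, Clu and Sfn are close in the libraries numbered 27, and Lgals3 and Ndrg1 overlap.

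Cd44 was at 21.8 RPKM in KO 27 and 19.6 RPKM in KO 35, against 3.72 RPKM in WT 27 and 5.34 RPKM in WT 35. Both KO libraries were high and close to each other, and both WT libraries were lower. The group means were 20.7 ± 1.52 RPKM in KO and 4.53 ± 1.15 RPKM in WT, a 4.57-fold higher mean in KO. The lowest KO library was 3.67 times the highest WT library. In order of RPKM among the tested genes, Cd44 stood at percentiles 90.9 and 89.1 in KO 27 and KO 35, and at percentiles 47.5 and 58.6 in WT 27 and WT 35. The authors' deposited table gives a fold change of 4.31 for Cd44. Cd44 lies on chromosome 2 from 102811141 to 102901669 in GRCm38, for which mm10 is another name. RefSeq places 1 other gene, Gm23731, within that span, which is not analysed here, while the other 5 genes overlap no annotated gene.

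Sprr1a was at 29.0 RPKM in KO 27 and 94.9 RPKM in KO 35, against 0.625 RPKM in WT 27 and 1.27 RPKM in WT 35. It was the lowest of the 6 genes in both WT libraries and the highest in both KO libraries. The group means were 62.0 ± 46.6 RPKM in KO and 0.947 ± 0.456 RPKM in WT, a ratio of 65.4. The lowest KO library was 22.9 times the highest WT library, while the KO libraries themselves differed 3.27-fold. The log2(RPKM + 1) difference was 4.805, and because WT was near 1 RPKM it depended on the pseudocount, with 5.72 at a pseudocount of 0.1 and 3.296 at a pseudocount of 5. The authors' deposited table gives a fold change of 50.6 for Sprr1a. Sprr1a lies on chromosome 3 from 92483954 to 92485881.

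Promoters of 4 of the 6 genes, Cd44, Sprr1a, Sfn and Lgals3, are in the RefSeq table of GRCm38.p6, each covering 250 bases before and 50 bases after the annotated start. Those of Cd44 and Sprr1a are shown because these genes differed most between the groups. They were searched on both strands for TGANTCA (the AP-1 motif), ACGTG (1 form of the core of the hypoxia response element) and GGAATG (the TEAD motif). Matches are in capitals, and other forms of these motifs were not searched for.
Cd44, chr2:102901616-102901915, minus strand: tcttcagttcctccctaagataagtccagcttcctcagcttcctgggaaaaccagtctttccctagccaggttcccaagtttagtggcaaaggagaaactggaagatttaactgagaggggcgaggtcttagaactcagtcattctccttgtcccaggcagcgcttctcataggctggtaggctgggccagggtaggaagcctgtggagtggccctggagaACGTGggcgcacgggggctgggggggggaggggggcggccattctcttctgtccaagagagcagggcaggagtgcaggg
Sprr1a, chr3:92485832-92486131, minus strand: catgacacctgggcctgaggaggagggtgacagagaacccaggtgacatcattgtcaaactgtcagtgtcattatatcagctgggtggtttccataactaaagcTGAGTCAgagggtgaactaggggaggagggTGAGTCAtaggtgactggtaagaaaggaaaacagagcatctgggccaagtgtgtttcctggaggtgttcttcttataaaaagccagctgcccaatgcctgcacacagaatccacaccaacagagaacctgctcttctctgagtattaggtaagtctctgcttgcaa
The Sprr1a window held 2 AP-1 matches, both reading TGAGTCA, with first bases 146 and 116 bases before the annotated start. Of 32544 distinct promoters of 300 bases, 7.79% held at least 1 AP-1 match and 0.464% held 2 or more. The Cd44 window held 1 ACGTG, with its first base 29 bases before the annotated start, a motif found in 19.7% of promoters on either strand. TEAD matches were in 14.6% of promoters and in none of these 4. The Sfn and Lgals3 windows held none of the 3 motifs in the forms searched. No matches overlapped each other. A match is a run of letters in a short window, and binding was not measured.

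Clu was at 9.60 RPKM in KO 27 and 16.4 RPKM in KO 35, against 7.18 RPKM in WT 27 and 3.10 RPKM in WT 35. The groups did not overlap, but KO 27 was only 1.34 times WT 27, and the WT libraries differed 2.31-fold from each other. The means were 13.0 ± 4.78 RPKM in KO and 5.14 ± 2.88 RPKM in WT, a ratio of 2.52. The log2 difference was 1.23, or 0.73 without WT 35. The authors' deposited table gives a fold change of 2.46 for Clu. Clusterin binds misfolded proteins outside the cell and travels with lipoproteins, and its gene lies on chromosome 14 from 65968483 to 65981548.

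Sfn was at 2.54 RPKM in KO 27 and 7.20 RPKM in KO 35, against 2.49 RPKM in WT 27 and 2.15 RPKM in WT 35. Only KO 35 was high. KO 27 was 1.02 times WT 27, so the separation of the groups rests on that 1 library, and the log2 difference was 0.70 with all libraries, 0.094 without KO 35 and 1.31 without KO 27. The means were 4.87 ± 3.29 RPKM in KO and 2.32 ± 0.242 RPKM in WT. The authors' deposited table gives a fold change of 1.35 for Sfn, below the ratio of 2.097 between the mean RPKM. Sfn, on chromosome 4 from 133600556 to 133602168, encodes the 14-3-3 protein that p53 induces to hold cells before mitosis.

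Lgals3 was at 3.95 RPKM in KO 27 and 9.51 RPKM in KO 35, against 6.05 RPKM in WT 27 and 2.47 RPKM in WT 35. The groups overlapped, with KO 27 below WT 27. The means of 6.73 ± 3.93 RPKM in KO and 4.26 ± 2.53 RPKM in WT were closer together than the libraries of either group. Without KO 35 the log2 difference was 0.0027 and without KO 27 it was 1.09, against 0.55 with all libraries. Lgals3, on chromosome 14 from 47373860 to 47386167, encodes a lectin that binds galactose-bearing sugars and is abundant in macrophages as well as in injured epithelium.

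Ndrg1 was at 8.92 RPKM in KO 27 and 10.1 RPKM in KO 35, against 9.70 RPKM in WT 27 and 9.03 RPKM in WT 35. The 4 libraries were close together and the groups overlapped. The means were 9.51 ± 0.836 RPKM in KO and 9.37 ± 0.474 RPKM in WT, and the log2 difference was 0.019. The authors' deposited table gives a signed fold change of -1.07 for Ndrg1, where the minus sign means lower in the mutant. With 2 libraries per group this does not show that Ndrg1 was the same in both. Ndrg1 lies on chromosome 15 from 66929318 to 66969641.

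The order of the 6 genes by RPKM, a measure per length, differed between the groups. In KO, Sprr1a came first and Cd44 second, each clear of the next gene in both libraries, followed by Clu, Ndrg1, Lgals3 and Sfn. The ranges of these last genes over the 2 libraries overlapped from each to the next, but the order was the same within each KO library. In WT, Ndrg1 came first and clear of the next gene, and Sprr1a was last and clear of Sfn. Between them came Clu, Cd44, Lgals3 and Sfn by mean, with ranges that overlapped from each to the next. Within each WT library Clu was above Lgals3 and Lgals3 above Sfn, while Cd44 was below Clu and Lgals3 in WT 27 and above both in WT 35. The 6 genes summed to 75.8 RPKM in KO 27 and 158 RPKM in KO 35, against 29.8 RPKM in WT 27 and 23.4 RPKM in WT 35. Most of the gap between the KO libraries came from Sprr1a.

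The libraries within a group differed for most of these genes. KO 35 was above KO 27 for 5 of the 6 genes, Cd44 being the exception. The share of all tested genes with KO 35 above KO 27 was not counted, so nothing is read from this count. For Clu, Sfn, Lgals3 and Ndrg1 the female library was above the male one in KO and in WT alike, which was the case for 20.5% of all tested genes. For Lgals3 and Ndrg1 both female libraries were above both male ones, as for 9.89% of all tested genes. Each sex is 1 library per group, so sex and any other difference between these libraries cannot be told apart. Compared within a sex, Lgals3 in KO was 1.57 times WT in the female pair and 1.60 times in the male pair, although it overlapped between the groups. Cd44 was 5.28 times WT in the female pair and 4.07 times in the male pair. Sprr1a was 152 times WT in the female pair and 22.9 times in the male pair. The ratios were 2.28 and 3.09 for Clu, 2.89 and 1.18 for Sfn, and 1.04 and 0.988 for Ndrg1 in the female and male pair. KO was thus above WT within each sex for 5 of the 6 genes, and for 36.5% of all tested genes. The female pair, KO 35 and WT 27, is also the pair whose headings and titles agree.

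**Figure D2:**
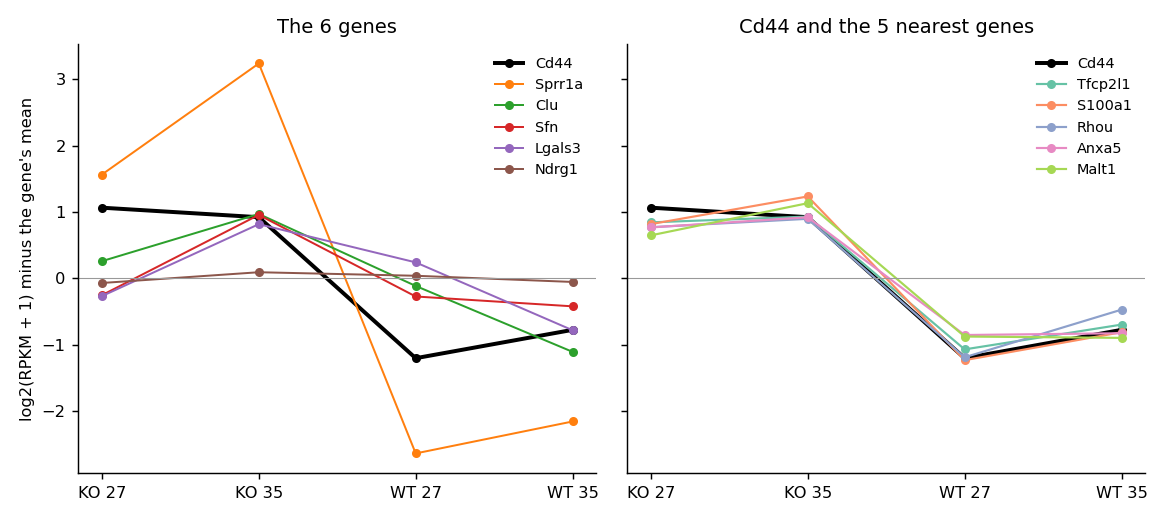
Log2(RPKM + 1) minus the gene's own mean (y axis) in the 4 libraries (x axis), for the 6 genes at left and for Cd44 with the 5 genes nearest to it at right. Each line is a gene. Sprr1a spans the widest range, Ndrg1 is nearly flat, and Clu, Sfn and Lgals3 peak in KO 35, while Cd44 is level within KO.

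Genes whose values ran most like those of Cd44 were sought by the distance between mean-centred log2(RPKM + 1) profiles over the 4 libraries, among genes with a mean of at least 5 RPKM. The nearest of 4464 were Tfcp2l1, S100a1, Rhou, Anxa5 and Malt1, at distances from 0.27 to 0.58, where Cd44 itself lies 2.01 from its own mean. Tfcp2l1, which encodes a transcription factor of the grainyhead-like family, was at 42.1 and 44.8 RPKM in KO (27 and 35), against 10.4 and 13.8 RPKM in WT (27 and 35). S100a1, a calcium-binding protein gene, was at 26.7 and 36.0 RPKM in KO, against 5.67 and 7.93 RPKM in WT. Rhou, a small GTPase gene, was at 9.83 and 10.8 RPKM in KO, against 1.78 and 3.57 RPKM in WT. Like Cd44, these were lower in both WT libraries than in either KO library, and lowest in WT 27. Unlike Cd44, they were higher in KO 35 than in KO 27. Nearest to Sprr1a were the small nucleolar RNA gene Snord22, listed at 0 in both WT libraries, and Areg. Nearest to Clu were Ndnf and Ass1, to Sfn the row LOC100503676 and S100a6, to Lgals3 S100a14 and LOC100503676, and to Ndrg1 the genes Wnk1 and Ablim1. S100a6, which encodes another calcium-binding protein, was at 29.8 and 60.5 RPKM in KO (27 and 35), against 23.3 and 18.6 RPKM in WT (27 and 35), high in KO 35 alone as Sfn was. With 4 libraries, the distance says only how far the values run alike.

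Whether other genes of these pathways differed was asked with limma on log2(RPKM + 1) over all 10128 genes, of which 0.0691% passed a Benjamini-Hochberg adjusted p of 0.05 in either direction. Over 9 lists, 77 distinct genes were tested and 0 passed, with limma's trend in the prior variance and without it. At an unadjusted limma p under 0.05 there were 22 of them, 18 higher and 4 lower in KO, where 13.8% of all tested genes reached that level (8.17% higher and 5.68% lower). The lists were chosen with earlier results of these data known, so the counts and medians below only describe each list. The median over all tested genes, 0.056, is the value to set beside these counts and medians. They include Spp1, Vcan, Ivl, Ndrg4, Tnip3 and Bax, which were tested only because of their levels in KO, and Apoe, tested only because of its level in WT, so these genes support no direction. KO lay above WT without overlap for 30% of all tested genes and below WT for 16.3%, the shares to set beside the counts of genes that do not overlap.

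Around Cd44, hyaluronan synthases and hyaladherins were low in both groups. Genes of a sheddase (Adam10) and a cytoskeletal linker (Ezr) of CD44 were higher in KO without passing the test, while some other protease and linker genes overlapped. Of 20 listed genes 13 were tested and 0 passed, 7 had KO above WT without overlap (30% of all tested genes) and none had KO below WT (16.3%), and the median log2 difference was 0.19. The synthases Has1, Has2 and Has3, which make hyaluronan, stayed below 1 RPKM in every library. Adam10, a protease that sheds the CD44 ectodomain, was at 13.0 and 12.7 RPKM in KO (27 and 35), against 7.35 and 7.14 RPKM in WT (27 and 35) (log2 difference 0.75, limma adjusted p = 0.159). Its libraries were nearly equal within each group. Of the other proteases of the list, Adam17 had KO above WT without overlap, with a log2 difference of 0.19. Mmp14 overlapped between the groups (log2 difference -0.22), and Mmp9 stayed below 1 RPKM in every library. Ezr, which encodes ezrin and links CD44 to actin, was at 45.8 and 46.5 RPKM in KO, against 33.42 and 33.01 RPKM in WT (log2 difference 0.46, limma adjusted p = 0.231). The related linkers moesin (Msn) and radixin (Rdx) overlapped between the groups, with log2 differences of -0.18 and -0.14. Spp1, which encodes osteopontin, a ligand of CD44, was at 1.62 and 1.99 RPKM in KO, against 0.0239 and 0.133 RPKM in WT (log2 difference 1.38, limma adjusted p = 0.0832). Versican (Vcan), which binds hyaluronan, was at 1.15 ± 0.112 RPKM in KO and 0.617 ± 0.00727 RPKM in WT. Esrp1, an epithelial splicing factor that sets the exons of Cd44, was at 13.2 and 15.0 RPKM in KO, against 10.8 and 12.1 RPKM in WT.

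Cd44, Spp1 and Lgals3 are also genes of macrophages and other leukocytes. Of 9 immune markers in the table, 7 had higher values in both KO libraries than in either WT library, as had 30% of all tested genes. They summed to 18.9 and 16.3 RPKM in KO (27 and 35), against 7.267 and 5.996 RPKM in WT (27 and 35), and none was at 0 in any library. Fcer1g was the highest of them, at 7.87 and 8.84 RPKM in KO, against 2.93 and 2.17 RPKM in WT. Tyrobp was at 3.57 and 1.80 RPKM in KO, against 0.830 and 0.182 RPKM in WT, and Laptm5 at 2.59 and 1.57 RPKM in KO, against 1.08 and 1.01 RPKM in WT. Ptprc, the common leukocyte antigen, was at 0.401 and 0.185 RPKM in KO, against 0.177 and 0.0616 RPKM in WT. Its level and that of Cd44 ran in the same direction between the groups, and the part of leukocytes in the values of Cd44, Spp1 and Lgals3 was not tested. The 7 mesenchymal markers summed to between 20.5 and 22.1 RPKM in KO and between 17.0 and 24.9 RPKM in WT, and the 5 endothelial markers to between 9.29 and 10.9 RPKM in KO and between 10.2 and 12.9 RPKM in WT.

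The other Sprr genes stayed at or near 0 in both groups. Of 13 other Sprr genes in the data, 11 were listed at 0 in all 4 libraries, and the highest value of any was 0.146 RPKM. The other 2, Sprr2d and Sprr2h, were above 0 in 1 KO library each and in no WT library. How reads shared by similar genes were handled is not known. Of 29 genes of the cornified envelope and squamous epithelium 25 stayed below 1 RPKM in every library, and the basal and squamous markers Trp63, Krt5 and Krt14 summed to at most 0.577 RPKM in KO and 0.799 RPKM in WT. The tested 4 had a median log2 difference of 0.26 and 0 passed. Involucrin (Ivl), an envelope protein, was at 1.15 and 2.55 RPKM in KO (27 and 35), against 0.179 and 1.01 RPKM in WT (27 and 35) (log2 difference 0.84, limma adjusted p = 0.370). That difference was 0.48 without KO 35 and 0.46 without WT 27. Tgm1, the transglutaminase that crosslinks the envelope, was at 6.41 and 6.66 RPKM in KO, against 5.56 and 2.12 RPKM in WT (log2 difference 0.74, limma adjusted p = 0.425), and the difference was 0.20 without WT 35 and 1.27 without WT 27. Both had groups that did not overlap, while the plakin genes Evpl and Ppl overlapped, with log2 differences of -0.26 and -0.22. Sprr1a was high in KO libraries in which nearly all its relatives stayed at or near 0.

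In the families and pathways of the other 4 genes 0 tested genes passed. Clusterin's receptors Lrp2 and Vldlr overlapped between the groups. The extracellular chaperone haptoglobin (Hp) was at 16.6 and 15.0 RPKM in KO (27 and 35), against 30.1 and 35.3 RPKM in WT (27 and 35) (log2 difference -1.003, limma adjusted p = 0.125). Apoe, a lipoprotein gene, was at 0.577 ± 0.158 RPKM in KO and 1.72 ± 0.615 RPKM in WT. Of the 4 tested genes of this list, Hp and Apoe had KO below WT without overlap, as had 16.3% of all tested genes. Apoe was tested only because of its level in WT, so it supports no direction. The 3 genes of the list that were not tested overlapped between the groups. All 6 other 14-3-3 genes had positive log2 differences, as had 59.2% of all tested genes, and 2 of them overlapped between the groups. Their median was 0.19 and the largest value was 0.41 in Ywhah, or 0.23 without KO 35. In RPKM they were far above Sfn, the most abundant being Ywhaz, at 215 ± 8.11 RPKM in KO and 173 ± 7.54 RPKM in WT.

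Among the other galectins tested, Lgals8 was at 9.11 ± 0.102 RPKM in KO and 6.23 ± 1.11 RPKM in WT (log2 difference 0.49), and Lgals9 overlapped. Lgals3bp, which encodes a glycoprotein bound by galectin-3, was at 6.65 and 7.10 RPKM in KO (27 and 35), against 8.74 and 13.8 RPKM in WT (27 and 35) (log2 difference -0.61, limma adjusted p = 0.323), and the difference was -0.31 without WT 35. Of the other NDRG genes, Ndrg2 and Ndrg4 had both KO values above both WT values, as had 30% of all tested genes. Ndrg4 was tested only because of its levels in KO. Ndrg2 was at 5.87 and 6.12 RPKM in KO, against 3.96 and 2.90 RPKM in WT (log2 difference 0.67, limma adjusted p = 0.205), and Ndrg4 at 1.48 ± 0.167 RPKM in KO and 0.686 ± 0.263 RPKM in WT, while Ndrg3 overlapped. Hypoxia targets, the group in which Ndrg1 is best known, had a median log2 difference of 0.057 over 11 tested genes, against 0.056 over all genes. Of these, 3 had KO above WT, 2 had KO below WT and 6 overlapped, near the 30% and 16.3% of all tested genes. The largest of these differences was that of Pdk1, a kinase gene (log2 difference -0.50, limma adjusted p = 0.213). Pdk1 was at 3.70 ± 0.196 RPKM in KO and 5.66 ± 0.0971 RPKM in WT.

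p53 targets, the group to which Sfn belongs, had a median log2 difference of 0.11 over 10 tested genes. Of these, 5 had KO above WT without overlap and none had KO below WT, beside 30% and 16.3% of all tested genes. Of the 4 genes not tested, Phlda3 had both KO values below both WT values, Gdf15 had both above, and Eda2r and Bbc3 overlapped. Cdkn1a, the cell cycle inhibitor p21, was at 15.2 and 21.2 RPKM in KO (27 and 35), against 4.19 and 8.84 RPKM in WT (27 and 35) (log2 difference 1.41, limma adjusted p = 0.205). Perp, a membrane protein of desmosomes, was at 25.1 ± 0.334 RPKM in KO and 19.29 ± 1.4998 RPKM in WT. Mdm2, the ubiquitin ligase that p53 itself induces, overlapped between the groups (log2 difference -0.074).

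In the list of the transitional epithelial state, more genes were higher in KO than lower, and none passed the test. Of 25 tested genes 14 had KO above WT without overlap, 0 had KO below WT, and 11 overlapped, beside 30% and 16.3% of all tested genes in these directions. Of the 25 genes, 10 had an unadjusted limma p under 0.05, all higher in KO, as had 8.17% of all tested genes. The list was chosen with earlier results of these data known, so these counts give no support to a direction. Both include Tnip3, tested only because of its levels in KO. The median log2 difference was 0.37, or 0.32 with quantile normalization. Cdkn1a and Mdm2 are counted here and among the p53 targets. Amphiregulin (Areg), a ligand of the EGF receptor, was at 66.3 and 106 RPKM in KO (27 and 35), against 4.53 and 9.18 RPKM in WT (27 and 35) (log2 difference 3.501, SE 0.35, limma adjusted p = 0.0670). It had the smallest p of the list genes, and its adjusted p lay between 0.00873 and 0.398 over the settings tried with the groups of the headings. It passed with the heading numbers as a replicate block (limma adjusted p = 0.00873), although the labels do not say that these pair the libraries, and it passed without WT 27 (adjusted p = 0.0348) and without WT 35 (adjusted p = 0.0176), where the remaining WT library is assumed to vary like the KO libraries. Tnfrsf12a, a receptor induced by injury, was at 5.38 and 8.94 RPKM in KO, against 1.999 and 3.294 RPKM in WT (log2 difference 1.15, limma adjusted p = 0.205). Tpm1, an actin-binding tropomyosin gene, was at 172 and 201 RPKM in KO, against 101 and 117 RPKM in WT (log2 difference 0.77, limma adjusted p = 0.196).

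Of the keratins that define the state, Krt8 and Krt18 had both KO values above both WT values without passing the test, and Krt19 and Krt7 overlapped. Krt8 was at 29.5 and 33.8 RPKM in KO (27 and 35), against 27.2 and 23.8 RPKM in WT (27 and 35), a log2 difference of 0.30. Krt18 was at 24.5 and 31.1 RPKM in KO, against 20.1 and 16.2 RPKM in WT (log2 difference 0.59, limma adjusted p = 0.273). Cldn4, a claudin of tight junctions, was at 2.34 and 4.81 RPKM in KO, against 1.94 and 1.63 RPKM in WT, and like Sfn it was high in KO 35 alone. Fosl1, a subunit of AP-1, was listed at 0 in all 4 libraries, and Plaur and Hbegf stayed below 1 RPKM. Among the genes of the list that were not tested, Phlda3 had both KO values below both WT values, while Hbegf and Gdf15 had both above. Of the markers of airway cells, the ciliated markers summed to 28.8 and 31.5 RPKM in KO, against 48.4 and 66.8 RPKM in WT, with 5 of 5 lower in both KO libraries than in either WT library, as were 16.3% of all tested genes. The club cell markers summed to 1729 and 2889 RPKM in KO, against 2807 and 10016 RPKM in WT. Most of that sum was Scgb1a1, which overlapped between the groups, with KO 35 above WT 27 and only WT 35 high. The other 2 of the 3, Scgb3a2 and Cyp2f2, had both KO values below both WT values, as had 16.3% of all tested genes. Cyp2f2 was at 78.5 and 82.2 RPKM in KO, against 134 and 179 RPKM in WT. The part of ciliated and club cells in the values of the transitional list and of the 6 genes was not tested. The alveolar type 1 markers, 8 genes, summed to 295 and 311 RPKM in KO, against 418 and 278 RPKM in WT.

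**Figure D3:**
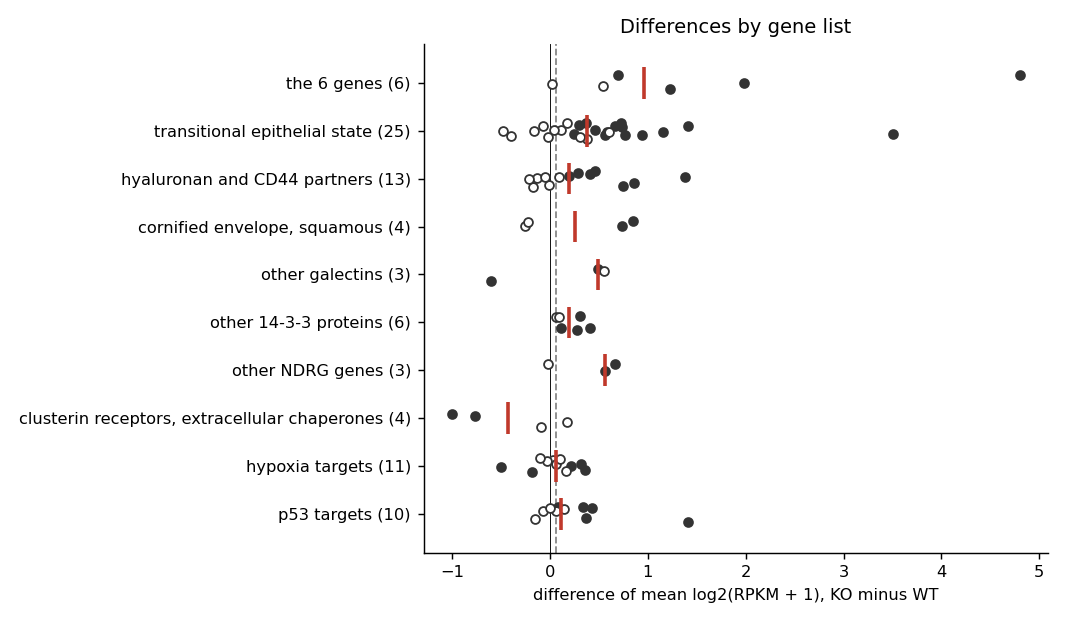
Difference of mean log2(RPKM + 1), KO minus WT (x axis), for the 6 genes and for the tested genes of each list (rows, number tested in parentheses). Filled points are genes whose groups do not overlap, open points overlap, red bars are medians, and the dashed line is the median of all tested genes, 0.056. The 6 genes and the transitional list (median 0.37) lean to the right. The other NDRG genes (median 0.56, 3 genes) and the other galectins (median 0.49, 3 genes) lie at least as far right. The hypoxia targets centre on the dashed line, and the clusterin list has a median of -0.43.

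**Figure D4:**
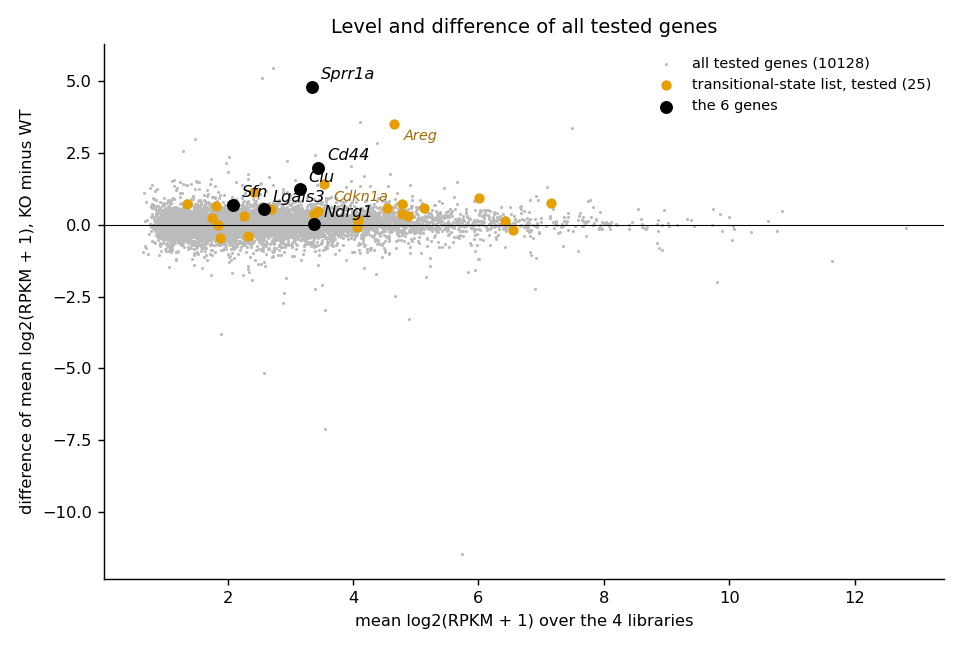
Difference of mean log2(RPKM + 1), KO minus WT (y axis), against the mean log2(RPKM + 1) of the 4 libraries (x axis), for all 10128 tested genes in grey, the transitional list in orange and the 6 genes in black. Sprr1a, at 4.805, and Cd44, at 1.99, lie above the grey cloud at a middle level, and Ndrg1, at 0.019, lies within it.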

How the data were processed

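The authors' deposited table holds 1 linear RPKM column per library, a unit taken from the headings of the filter columns. The deposited p-value per gene is not used here, and a deposited signed fold-change score is quoted only as the authors' deposited value. Per the submitters' processing notes, Bowtie2 2.1.0, TopHat2 2.0.8, Cufflinks 2.0.2, DESeq and mm10 were used. The sources used here do not give their roles, the annotation or read filters. RPKM divides by mapped reads, so genes of very high level lower the share of the others.

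The 6 genes, the lists and the tests were chosen with earlier results of these data known. A gene was fitted if 2 or more libraries reached 1 RPKM (10128 of 23444; 5819 were at 0 throughout). The fit used limma 3.58.1 (R 4.3.3) and log2(RPKM + 1) values (trended prior variance, 2 residual and 3.65 prior degrees of freedom, two-sided), with Benjamini-Hochberg adjustment over all of them and a threshold of 0.05. Named list genes are the 4 per list with the smallest p. Others, such as the keratins, were chosen after their values were seen. Other settings were pseudocounts of 0.1 and 5, no filter, a 10 RPKM filter, quantile normalization, an untrended prior, each library left out, the groups of the titles and a block by heading number. A block by sex and the single-sex pairs were added after the data were seen. The fit was tested on simulated data. The commonest ratio between low RPKM values placed the libraries within 0.964 to 1.04 of WT 27 in reads per unit, while absolute depth is unknown. That estimate rests on few genes, 32 of 1936 low genes for KO 27, 16 of 1782 for KO 35 and 17 of 1914 for WT 35. Figures used Python 3.11.15 with matplotlib 3.10.9.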

Additional observations from a re-analysis of the deposited data

How the results depend on the processing

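With the groups of the headings, the log2 differences of Cd44 (1.43 to 2.199), Sprr1a (3.296 to 5.72) and Clu (0.73 to 1.72) stayed positive under the pseudocounts, quantile normalization, the block and each library left out. The median of the 6 genes, 0.96, ranged from 0.48 to 1.44 without 1 library, the lowest being without KO 35, and was 1.16 in the female and 0.94 in the male pair. With the groups of the sample titles it was 0.088, Cd44 differed by 0.14, Sprr1a by 1.08, and Clu by -0.14. Emc3 differed by 0.17 there, and Adam10 (-0.037), Tgm1 (-0.51), Lgals8 (-0.15), Lgals3bp (0.34), Ywhaz (-0.0059), Ndrg2 (-0.15), Ndrg4 (-0.091), Hp (0.044), Apoe (0.34), Vldlr (0.50), Perp (-0.089) and Zmat3 (-0.36) changed direction as well. Without 1 library, Ndrg3 ranged from -0.15 to 0.10, Lrp2 from -0.46 to 0.81, and Vldlr from -0.47 to 0.28.

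Of all genes, 7 passed with limma. The count was 4 with a pseudocount of 5, 4 with a filter of 10 RPKM, 4 with the groups of the titles, 11 with the sex block, 8 to 43 without 1 library (43 without WT 27 and 28 without WT 35), and 0 with no filter, where 1979 had an unadjusted limma p under 0.05. Emc3 lost its call without KO 27, without KO 35, with no filter and with a filter of 10 RPKM (limma adjusted p = 0.0664, 0.0642, 0.171 and 0.0696). Of list genes 0 passed, or 1, Areg, without WT 27, without WT 35 and with the replicate block. The cause of these changes was not tested.

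The labels do not say that the heading numbers 27 and 35 pair libraries. With them as a replicate block 9 genes passed and 1 list gene, and across genes the deviations of same-numbered libraries from their group means correlated at 0.148. Reads per library are unknown, so how far counting error limits the lowest values, such as Sprr1a in WT, is not known.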
